A study of Mus musculus with 15 samples.

Results

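Integrins, cadherins, laminins and collagens were read in mouse embryonic stem (ES) cells that carry or lack Srf, over a time course of serum. The set comprised 73 of the 8221 genes that had a single symbol in the platform annotation, chosen because the symbol followed the naming pattern of 1 of the 4 families. It held 19 integrin subunits, 13 cadherins, 9 laminin chains, 31 collagen chains and Itgb1bp1, a cytoplasmic protein that binds the tail of integrin beta 1 and is not an integrin subunit. These genes had 99 probe sets, and each gene was read by the one with the highest mean over the 15 arrays, a choice that concerned 18 genes with several.

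Integrins are pairs of an alpha and a beta chain that hold a cell to its matrix and link it to actin through adaptors such as talin and vinculin. Classical cadherins bind the same cadherin on the next cell and hold actin through catenins. Laminins, trimers of an alpha, a beta and a gamma chain, and type IV collagen, a trimer built mostly from the chains of Col4a1 and Col4a2, form the basement membrane, the first matrix of the embryo. SRF, the product of Srf, binds DNA and turns on genes in response to serum and to the state of actin, many of them genes of the cytoskeleton and of adhesion.

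Total RNA of 3 lines was hybridized to Affymetrix MGU74A arrays after 0, 10, 30, 60 and 180 min of fetal bovine serum, a single array standing for every time in every line. The cell lines were E14, which is wild-type for Srf, E100-/-, which is Srf-null, and E100-/- rescue, referred to here as rescue. How the rescue line was generated is not stated in the labels, nor is it stated whether time points came from separate cultures. The p-values therefore reflect only how much the times of 1 series per line vary, which may be technical. The question that the design puts is which transcripts follow the Srf genotype and which follow serum in each genotype.

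Trimmed mean intensities lay between 350.5 and 1439 units, and 24.9% to 41.6% of values were 0 or below. Of 105 pairs of arrays, 0 were identical. Srf had 0 probe sets with its symbol alone, so the genotype could not be read from the gene itself. The 0 min arrays of wild-type and rescue stood apart from their own lines in 2 genes. Igf2, a fetal growth factor gene, was below 0 on both, at -1853 and -1829 intensity units, against 2640 to 5223 on the later wild-type arrays and 5942 to 10240 on the later rescue arrays. It was below 0 on every Srf-null array. Actg1, a cytoplasmic actin gene, read 9783 and 8891 units on the same 2 arrays, inside the 7327 to 14000 of the Srf-null arrays and below the 27390 to 41630 of their own lines at later times. In these 2 genes both arrays thus went against the line they are labelled as, and whether the labels hold was not tested. By correlation over all tested probe sets, wild-type 0 min was nearest to its own line (wild-type 30 min, 0.867). The nearest array was of another line for 4 arrays. Wild-type 30 min and Srf-null 10 min were nearest to each other (0.944). Rescue 0 min was nearest to Srf-null 180 min (0.939), and rescue 10 min to Srf-null 30 min (0.943, as within its line). The 3′ over 5′ signal of the beta-actin controls, which climbs as RNA or its labelling gets shorter, was 7.53, 2.94 and 4.22 on the 0 min arrays of wild-type, Srf-null and rescue, 3.83 on Srf-null 60 min, and 0.847 to 2.11 on the other 11 arrays. Lines were therefore compared over the 12 arrays of 10 to 180 min, and values over all 15 arrays, which carry that doubt, are given beside them where the call differs. The ES cell markers Pou5f1 and Sox2 were read on every array, at 12560 to 27190 and 18310 to 31890 units.

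Values are quantile-normalized intensities. They can be compared between arrays for 1 gene and not between genes, since each probe set has its own brightness. A floor of 84.98 was used, and values under it count as not measured. Of the 73 genes, 23 were above the floor on all 15 arrays, 40 on 1 to 14 arrays and 10 on no array. The genes read on all arrays included the integrin subunits Itga3, Itga6, Itgal, Itgav, Itgb1, Itgb2l and Itgb7, the cadherin Cdh1 and the laminin chains Lama1, Lama2, Lama5 and Lamb1. Among collagens they were Col1a1, Col2a1, Col4a1, Col4a2, Col5a1, Col6a1, Col9a1, Col9a2, Col18a1 and Col26a1. On no array above the floor were the cadherins Cdh5, Cdh8 and Cdh13, the laminin chains Lama3 and Lamb3, and the collagen chains Col1a2, Col4a3, Col8a1, Col15a1 and Col22a1. Col1a2 encodes the partner of Col1a1 in type I collagen, and its probe set lay between -1168 and -341.7 units. Of the 73 genes, 58 passed the filter for testing, which asks for a value above the floor on at least 2 of the 15 arrays. They were 18 integrins, 7 cadherins, 7 laminins, 25 collagens and Itgb1bp1.

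**Figure D1:**
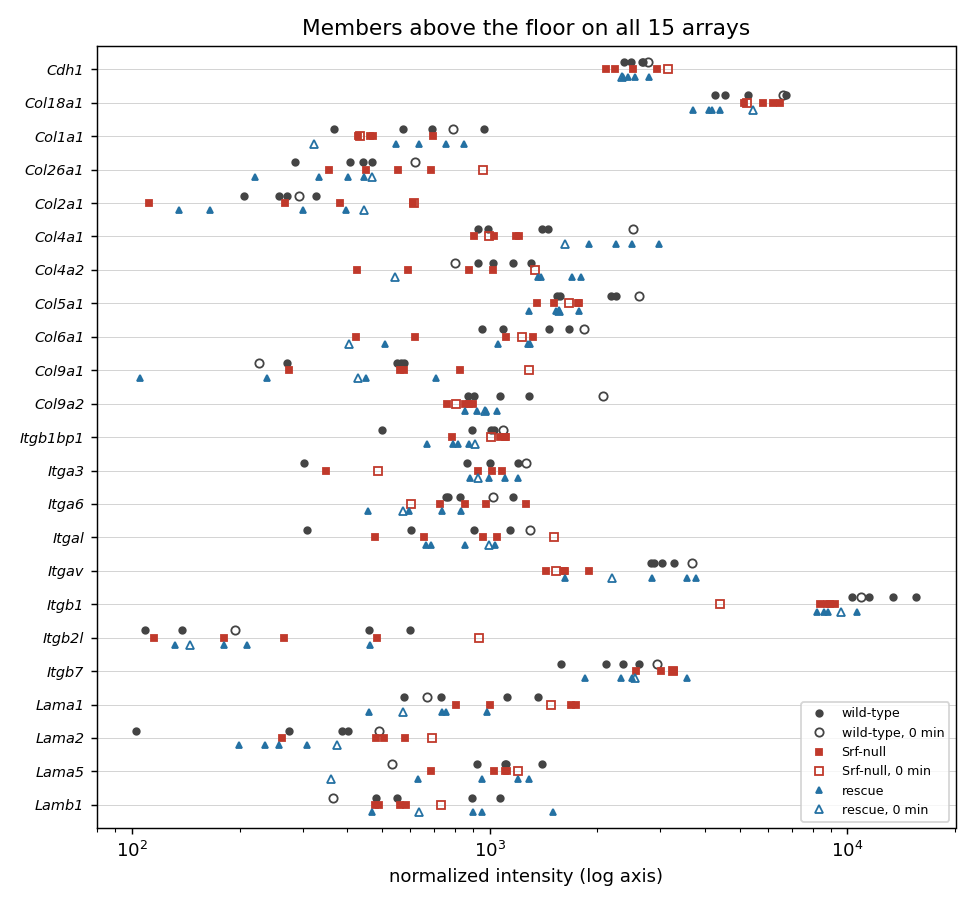
Normalized intensity (log axis) of the 23 genes above the floor on all 15 arrays, by line. Filled points are the arrays of 10 to 180 min and open points those of 0 min. Itgav lies lower on the Srf-null arrays than on the wild-type arrays, Col4a1 lies highest in rescue at 10 to 180 min, and Cdh1 has overlapping, narrow ranges in the 3 lines. Positions along the axis compare arrays for 1 gene, not genes with each other.

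Against both other lines, 0 of the 58 tested genes passed limma's test in Srf-null cells at a Benjamini-Hochberg adjusted p under 0.05, while 111 of 9558 probe sets (1.16%) did. At an unadjusted p under 0.05 there were 10 genes (17.2%) against 14.5% of all probe sets. The median difference was 0.03 on the log2 scale for the genes and 0.02 for all probe sets. Against wild-type alone, 0 of 58 passed, beside 31 probe sets (0.324%), and 7 genes (12.1%) had an unadjusted p under 0.05, the same share as all probe sets. From Srf-null to rescue, 3 of 58 passed, all of them collagens, with Col4a1 and Col4a2 higher and Col18a1 lower in rescue, beside 215 probe sets (2.25%), of which 1.17% of all probe sets were higher and 1.08% lower. There were 8 genes (13.8%) at an unadjusted p under 0.05 against 13.6% of all probe sets. Between rescue and wild-type 0 of 58 passed, beside 38 probe sets (0.398%), and 3 genes (5.17%) had an unadjusted p under 0.05 against 9.85% of all probe sets. Over all 15 arrays 0 genes passed in any of these 4 comparisons, beside 13, 0, 21 and 0 probe sets, or 0.136%, 0%, 0.22% and 0%. At an unadjusted p under 0.05 there were then 12, 9, 9 and 3 genes (20.7%, 15.5%, 15.5% and 5.17%), against 10.5%, 9.58%, 9.19% and 7.25% of all probe sets. The 4 comparisons share their lines, so their results are not independent.

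**Figure D2:**
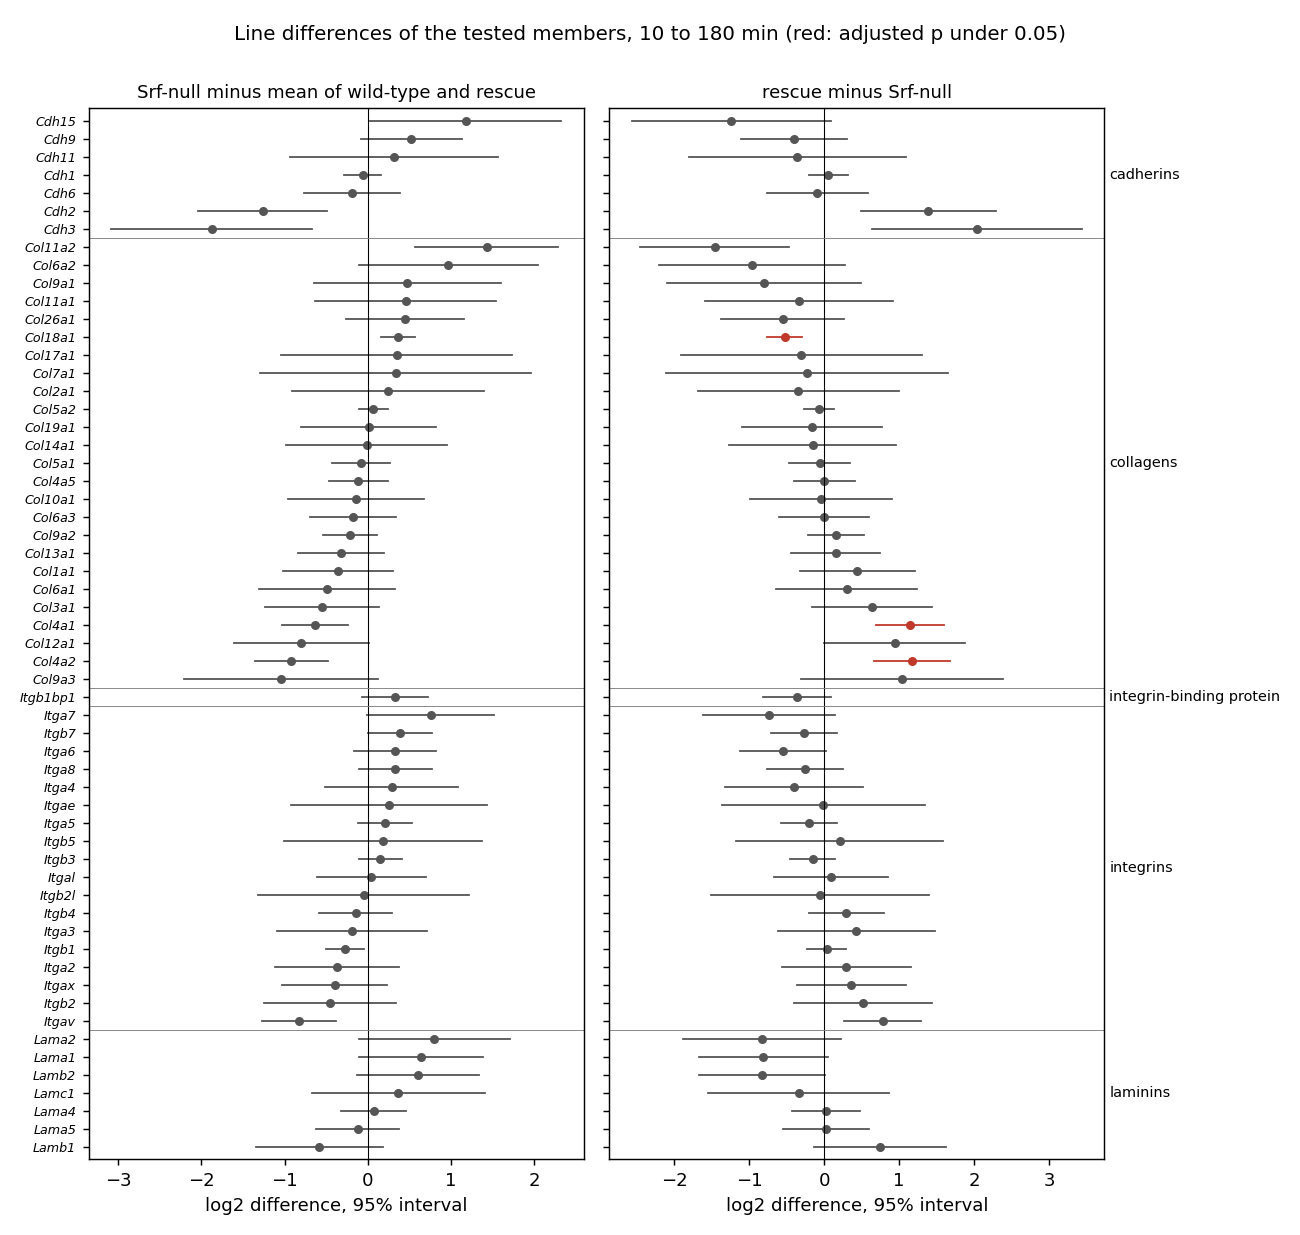
Log2 differences of the 58 tested genes with 95% intervals, Srf-null minus the mean of wild-type and rescue on the left and rescue minus Srf-null on the right, from 12 arrays of 10 to 180 min. Genes are grouped by family, and red marks an adjusted p under 0.05. There are 0 red genes on the left and 3 on the right, Col4a1, Col4a2 and Col18a1.

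Among the receptors for matrix, the beta 1 chain and the alpha V chain gave the smallest p against wild-type. Itgb1 encodes the beta chain shared by most integrins that bind laminin, collagen and fibronectin. In wild-type cells it gave 10882, 13415, 10274, 15588 and 11520 units at 0, 10, 30, 60 and 180 min. Srf-null cells gave 4405, 8931, 8789, 8384 and 9209.9 units. The rescue line gave 9571, 8848, 8233, 10617 and 8593 units. Every wild-type array of 10 to 180 min lay above every Srf-null array, and the rescue arrays overlapped the Srf-null ones. Itgb1 differed by -0.51 ± 0.11 (log2, SE, 4 arrays per line) between Srf-null and wild-type, with limma's adjusted p = 0.141, and by -0.47 ± 0.11 between rescue and wild-type (adjusted p = 0.183). Rescue minus Srf-null was 0.03, with a 95% interval from -0.23 to 0.30. A second probe set of Itgb1 gave -0.48 ± 0.14 between rescue and wild-type (adjusted p = 0.273).

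Itgav encodes alpha V, the chain of receptors for vitronectin and fibronectin. Wild-type cells gave 3674, 2872, 2829, 3034 and 3276 units in order of time. The Srf-null values were 1529, 1899, 1433, 1623 and 1616. For rescue they were 2199, 1619, 2835, 3783 and 3568. All 5 Srf-null values lay below all 5 wild-type values, and the rescue line lay with Srf-null at 10 min and within or above the wild-type range from 30 to 180 min. Srf-null minus both other lines was -0.83 ± 0.19 for Itgav (limma's adjusted p = 0.0923), and -0.84 over all 15 arrays (adjusted p = 0.106). It passed without rescue 10 min (-0.97, adjusted p = 0.0125) and without Srf-null 10 min (-1.04, adjusted p = 0.0438). With the share of values at or below 0 on each array as a term in the model it was -0.37 (adjusted p = 0.532). A second probe set that was also read on all arrays gave -1.02 ± 0.24 (adjusted p = 0.0923), and another, above the floor on 4 arrays, -0.08 ± 0.09.

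From Srf-null to rescue Itgav differed by 0.78 ± 0.22 (adjusted p = 0.148), and by 1.07 without rescue 10 min (adjusted p = 0.0166). Against wild-type alone Srf-null differed by -0.87 ± 0.22 (adjusted p = 0.188), a difference that passed without rescue 10 min (adjusted p = 0.0387). Each array was left out in turn, and rescue 10 min is the rescue array that lay with Srf-null. Srf-null minus wild-type uses no rescue value, so that array enters it only through the shared estimate of spread and the adjustment. The 3 comparisons share arrays, so passing in each of them without that array is not independent support.

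Both Itgb1 and Itgav belong to the genes whose Srf-null arrays lay wholly below wild-type. That was so for 3 of 58 genes (5.17%), Cdh2 being the other, against 2.9% of all probe sets. The opposite order held for 0 of 58 genes and 2.89% of probe sets. Across the 12 arrays, log2 values of Itgav and Itgb1 had a Pearson correlation of 0.48, which describes arrays that share a line and a scaling.

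Of the other integrin chains, Itgb7, which pairs with alpha 4 in lymphocytes, gave 2561 to 3276 units in Srf-null cells, 1582 to 2609.8 in wild-type and 1842 to 3568 in rescue at 10 to 180 min. Its difference was 0.39 ± 0.17 (limma's adjusted p = 0.34). The laminin receptor chains Itga6 and Itga3 gave 0.33 ± 0.22 (adjusted p = 0.526) and -0.19 ± 0.40 (adjusted p = 0.857) by the probe sets used. A second probe set of Itga3 lay on average at the floor in Srf-null cells, at 241.7 units in wild-type and at 222.1 in rescue (-1.45 ± 0.50, adjusted p = 0.245). The 2 probe sets of Itga3 thus gave estimates of unlike size. Itga7, a laminin receptor chain of muscle, was above the floor on 3 of 4 Srf-null arrays and on 1 each of wild-type and rescue (0.76 ± 0.33, adjusted p = 0.349). Itga5, the chain of the classical fibronectin receptor, and Itgb3, a partner of alpha V, were above the floor on 1 of these 12 arrays each, Srf-null 180 min.

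None of the 7 tested cadherins passed in a comparison of lines, and Cdh1, Cdh3 and Cdh2 are described by their values. Cdh1 encodes E-cadherin, which holds ES cell colonies together. It gave 2769.5, 2665, 2381, 2488 and 2680 units in wild-type cells. The Srf-null values were 3155, 2509, 2939, 2119 and 2247. The rescue values were 2337, 2362, 2544, 2432 and 2793. The 3 ranges overlapped fully, and the highest of the 15 values was 1.49 times the lowest, the smallest ratio of this kind among the 23 genes read on all arrays. Srf-null minus both other lines was -0.06 ± 0.10 for Cdh1, with a 95% interval from -0.29 to 0.16 (limma's adjusted p = 0.807).

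Cdh3 encodes P-cadherin, a classical cadherin of placenta and epithelia, and lies next to Cdh1 in the RefSeq gene order. Wild-type cells gave 1318, 984.5, 664.1, 1434 and 423.1 units. Srf-null cells gave 64.7, 355.1, 979.8, 72.1 and 116.7. Rescue cells gave 358.7, 1691, 1990.5, 788.8 and 371.3. Srf-null values spanned from below the floor to within the wild-type range at 30 min, and rescue was the highest line at 10 and 30 min. The largest difference of any cadherin between Srf-null and both other lines was that of Cdh3, -1.88 ± 0.53 (limma's adjusted p = 0.152), with 95% limits of -3.08 and -0.67. Over all 15 arrays it was -2.10 (adjusted p = 0.177). From Srf-null to rescue it was 2.04 ± 0.61 (adjusted p = 0.166). Across the 12 arrays the log2 values of Cdh3 and Cdh1 had a Pearson correlation of 0.47.

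Cdh2 encodes N-cadherin, the classical cadherin of neural and mesodermal cells. From 10 to 180 min wild-type cells gave 295.6, 207.2, 131.8 and 285.6 units. Srf-null cells gave 26.6, 121.2, 111.3 and 79.9. Rescue cells gave 307.0, 180.1, 391.5 and 210.2. Each Srf-null value lay below each value of both other lines, and Cdh2 was the only 1 of 58 genes (1.72%) with that order, against 1.18% of all probe sets. The reverse order held for 0 genes and 1.12% of probe sets. The difference was -1.26 ± 0.34 (limma's adjusted p = 0.132). At 0 min the 3 lines gave 19.0, -221.5 and 95.9 units, so wild-type was under the floor there too.

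Cdh15, the cadherin of muscle precursors, was above the floor on 3 of 4 Srf-null arrays and 1 of 4 in each other line. Its difference was 1.18 ± 0.50 (limma's adjusted p = 0.339). Without Srf-null 10 min, where it read 11.7 units, the difference was 1.90 (adjusted p = 0.0358). Wild-type and rescue lay at the floor at 30, 60 and 180 min, so their spread was understated and this pass carries little weight. Cdh9, a neural cadherin, gave 0.52 ± 0.27 (adjusted p = 0.412), and Cdh11, the cadherin of mesenchyme, 0.31 ± 0.55 (adjusted p = 0.825).

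**Figure D3:**
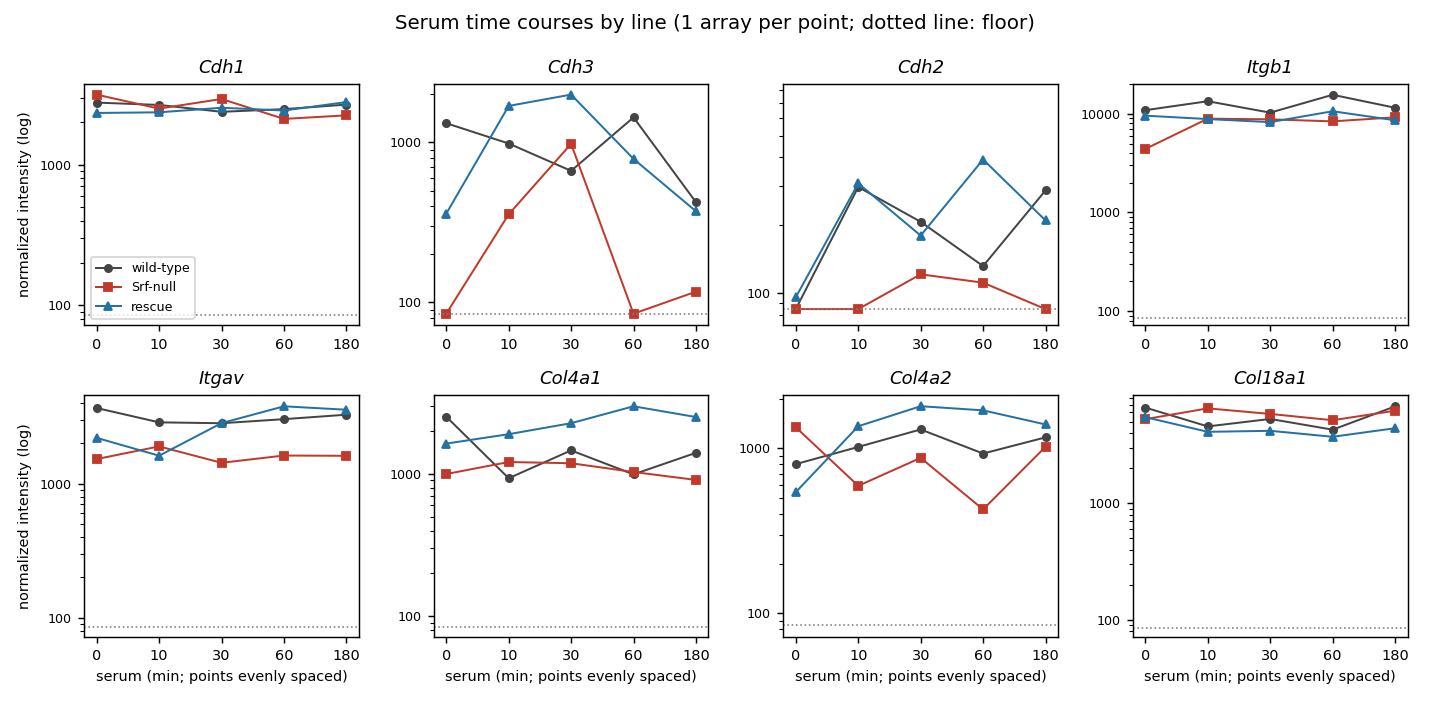
Normalized intensity (log axis) of Cdh1, Cdh3, Cdh2, Itgb1, Itgav, Col4a1, Col4a2 and Col18a1 against serum time for the 3 lines, 1 array per point; the dotted line is the floor at 84.98 and values under it are drawn there. Lines run close together for Cdh1, Srf-null is lowest for Itgav from 30 min, and rescue is highest for Col4a1 and Col4a2 from 10 to 180 min.

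Turning to the matrix, laminin chains gave 0 of 7 calls and 0 unadjusted p under 0.05 in Srf-null cells against both other lines by limma's test. Lama1, Lamb1 and Lamc1 encode the 3 chains of the first laminin that the embryo lays down. Lama1 gave 1002, 807.7, 1748 and 1687 units in Srf-null cells from 10 to 180 min. In wild-type it gave 1363, 1115, 575.6 and 733.3, and in rescue 752.9, 460.5, 981.5 and 735.4. Srf-null held the 2 highest values, and its range overlapped that of both other lines. The difference was 0.64 ± 0.33 (adjusted p = 0.41). For Lamb1 it was -0.58 ± 0.33 (adjusted p = 0.47), with 479.4 to 582.4 units in Srf-null cells, 480.1 to 1067 in wild-type and 468.3 to 1506 in rescue. For Lamc1, read near the floor at 50.2 to 321.4 units from 10 to 180 min, it was 0.37 ± 0.46 (adjusted p = 0.749). The estimates of the alpha and beta chain thus had opposite signs, and their log2 values had a Pearson correlation of -0.05 over the 12 arrays.

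Lama5, the alpha chain of the laminin used to grow ES cells, ranged from 360.9 to 1403 units and gave -0.12 ± 0.22 (limma's adjusted p = 0.832). Lamb2, a beta chain of synaptic and kidney basement membranes, was close to the floor at -38.6 to 303.5 units from 10 to 180 min (0.60 ± 0.32, adjusted p = 0.43). Lama2, the alpha chain of muscle laminin, gave 0.80 ± 0.40 (adjusted p = 0.405). Its arrays from 10 to 180 min read 262.3 to 580.7 units in Srf-null cells, 102.7 to 403 in wild-type and 199.5 to 308.2 in rescue. The ranges overlapped, with Srf-null highest at 30, 60 and 180 min.

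SRF binds a motif named the CArG box, so start sites of the genes were searched for it. Promoter windows of 300 bases, from 250 before to 50 after an annotated start, were at hand for 45 of the 73 genes in the RefSeq table of build GRCm38.p6, 50 windows in all. A CArG box on either strand was found in 1 of these windows, that of Lama2, against 535 of all 32851 windows (1.63%). It is shown because Lama2 is the single match among the genes. The stretch of 40 bases lies on the minus strand at chr10:27616957-27616996, and capitals mark the motif, which begins 39 bases before the start.
Lama2: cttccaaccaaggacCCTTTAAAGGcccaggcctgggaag
The match describes letters in a window and no binding was measured here. Matches of different motifs were counted separately, also where they overlap.

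Collagens of the basement membrane held the 3 differences between rescue and Srf-null cells that passed the test. Col4a1 and Col4a2 lie head to head on chromosome 8 and their annotated first exons overlap by 22 bases on opposite strands. Their windows are shown because both genes were higher in rescue than in Srf-null cells. The Col4a1 window is chr8:11312777-11313076 on the minus strand and the Col4a2 window chr8:11312555-11312854 on the plus strand, from RefSeq on GRCm38.p6. Capitals mark the 78 bases, chr8:11312777-11312854, that both windows hold, each on its own strand.
Col4a1: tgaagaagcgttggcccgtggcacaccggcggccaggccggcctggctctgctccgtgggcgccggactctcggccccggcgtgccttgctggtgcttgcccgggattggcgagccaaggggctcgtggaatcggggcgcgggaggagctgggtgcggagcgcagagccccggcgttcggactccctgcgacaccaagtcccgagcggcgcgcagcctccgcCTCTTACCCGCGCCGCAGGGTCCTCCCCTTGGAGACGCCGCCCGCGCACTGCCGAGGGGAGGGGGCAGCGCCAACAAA
Col4a2: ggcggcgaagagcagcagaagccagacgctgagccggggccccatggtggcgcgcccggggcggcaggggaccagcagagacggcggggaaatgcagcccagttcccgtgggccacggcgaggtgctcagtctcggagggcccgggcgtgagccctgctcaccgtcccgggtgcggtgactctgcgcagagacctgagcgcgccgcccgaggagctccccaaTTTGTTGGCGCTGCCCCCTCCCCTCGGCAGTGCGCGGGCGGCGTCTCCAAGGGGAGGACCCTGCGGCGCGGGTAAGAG
The GC box GGGCGG occurred on either strand 1 time in the Col4a1 window and 3 times in the Col4a2 window. The CCAAT box occurred 1 time in each. Over all windows 35.66% held a GC box and 37.41% a CCAAT box, and among the 50 windows of the genes 28 and 15 did.

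Col4a1 gave 2509, 929.5, 1456, 989.6 and 1401 units in wild-type cells at 0, 10, 30, 60 and 180 min. Srf-null cells gave 994.8, 1207, 1184, 1028 and 904.6. The rescue line gave 1625.5, 1892, 2259, 2967 and 2494. From 10 min on, every rescue value lay above every value of both other lines, whereas wild-type and Srf-null overlapped. Col4a1 was 2.21-fold higher in rescue than in Srf-null cells (1.14 ± 0.20 on the log2 scale, 95% interval 0.69 to 1.60, limma's adjusted p = 0.0267, 4 arrays per line). Rescue minus wild-type was 1.02 ± 0.20 (adjusted p = 0.0944), and Srf-null minus wild-type -0.12 ± 0.20 (adjusted p = 0.827). With the 0 min arrays, of which wild-type gave the highest value of its line, rescue minus Srf-null was 1.06 (adjusted p = 0.16).

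Col4a2 gave 802.2, 1019.7, 1301, 929.7 and 1165 units in wild-type cells. The Srf-null line gave 1341, 592.5, 875.3, 426.4 and 1021. Rescue gave 542.8, 1361, 1799.8, 1699 and 1395. At 0 min the order of the lines was the reverse of that at 10 to 180 min, with Srf-null highest and rescue lowest. Col4a2 was 2.25-fold higher in rescue than in Srf-null cells from 10 to 180 min (1.17 ± 0.22, 95% interval 0.66 to 1.68, limma's adjusted p = 0.0375). Over all 15 arrays the difference was 0.68 (adjusted p = 0.617). Srf-null minus both other lines was -0.92 ± 0.19 (adjusted p = 0.0633), and -0.53 over all 15 arrays (adjusted p = 0.584). Both type IV chains had 1 probe set each, and their log2 values correlated at 0.71 (Pearson) over the 12 arrays and 0.43 over all 15.

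Col18a1 encodes collagen XVIII, a basement membrane collagen whose end fragment is endostatin. It gave 6593, 4550, 5269.9, 4266 and 6753 units in wild-type cells. Srf-null cells gave 5248, 6493, 5817, 5139.8 and 6198. Rescue cells gave 5458, 4089.5, 4172, 3709 and 4391. From 10 min on, each rescue value lay below each Srf-null value and wild-type spanned both. Col18a1 was 1.44-fold lower in rescue than in Srf-null cells (-0.53 ± 0.10, 95% interval -0.77 to -0.29, limma's adjusted p = 0.0429) and -0.41 (adjusted p = 0.3) over all 15 arrays. A second probe set of Col18a1 that was also above the floor on all arrays gave a difference of 0.00 ± 0.17, so the 2 probe sets gave different estimates. Srf-null minus both other lines was 0.36 ± 0.09 (adjusted p = 0.109), and passed without wild-type 180 min (0.42, adjusted p = 0.0459).

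Non-overlap of rescue and Srf-null was not rare. Rescue lay wholly above Srf-null for 4 of 58 genes (6.9%), namely Col4a1, Col4a2, Cdh2 and Col12a1, a collagen that coats fibrils, against 4.87% of all probe sets. It lay wholly below for 1 of 58 (1.72%), Col18a1, against 4.46%. Rescue lay above wild-type without overlap for Col4a1 and Col4a2, 2 of 58 genes (3.45%) against 3.13%, and below it for 0 genes against 2.59%.

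The 3 calls were sensitive to single arrays and to processing. Without Srf-null 30, 60 or 180 min or any 1 of the 4 rescue arrays, Col4a1 gave 0.98 to 1.24 with adjusted p of 0.0679 to 0.106. Col4a2 kept its call without Srf-null 180 min (1.37, adjusted p = 0.0279) and lost it without any other 1 of the 12 arrays (0.96 to 1.33, adjusted p = 0.0563 to 0.148). Col18a1 kept it without wild-type 10 or 180 min (adjusted p = 0.0486 and 0.0193) and lost it without any other 1 (-0.59 to -0.45, adjusted p = 0.0637 to 0.166). Non-positive values made up 37.1% to 41.6% of Srf-null 30, 60 and 180 min and of rescue 0 and 10 min, and 24.9% to 30.9% of the other arrays. With that share as a term in the model Col4a1, Col4a2 and Col18a1 gave 0.98, 1.11 and -0.56 with adjusted p of 0.171, 0.196 and 0.174.

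Of the remaining collagens, Col11a2, a fibril collagen of cartilage, read 336.4, 316.4, 366.7 and 169.4 units in Srf-null cells from 10 to 180 min. In wild-type and rescue it was above the floor at 180 min alone, at 224.9 and 187.4. The difference was 1.43 ± 0.38 (limma's adjusted p = 0.126). Without Srf-null 180 min it passed (adjusted p = 0.0113), as did the difference from wild-type alone (1.96, adjusted p = 0.0233) and that from Srf-null to rescue (-2.03, adjusted p = 0.00935). Wild-type and rescue lay at the floor at 10, 30 and 60 min, so little spread was left to test. These passes therefore give no support beyond the values. At 0 min all 3 lines were below 0. The fibril collagens of connective tissue, Col1a1, Col3a1 and Col5a1, gave -0.36 ± 0.29, -0.55 ± 0.30 and -0.08 ± 0.15, with adjusted p of 0.608, 0.452 and 0.837. Col1a1 read 427.5 to 696.6 units in Srf-null cells, 366.6 to 963.3 in wild-type and 546 to 849 in rescue at 10 to 180 min.

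Genes that build or anchor the same structures were read in 5 lists, of which 4 held 1 call each in Srf-null cells against both other lines, where 1.16% of all probe sets were called. These lists, like the set itself, were chosen with earlier results of these data known. Of 19 tested integrin adaptors and focal adhesion genes 1 was higher and 0 lower, with a median of 0.02, and 6 (31.6%) had an unadjusted p under 0.05 against 14.5% of all probe sets. The gene was Fermt2 (kindlin-2, which activates integrins), at 3825, 5254 and 2739 units on average in wild-type, Srf-null and rescue cells (0.70 ± 0.08, limma's adjusted p = 0.00654). The actin linker Vcl (vinculin), an SRF target, read 2383, 1278 and 2173 units (-0.83 ± 0.20, adjusted p = 0.102). Catenins and cadherin partners gave 0 calls of 12, with a median of 0.07 and 1 unadjusted p under 0.05 (8.33%). Basement membrane and matrix partners gave 1 lower of 14, Fbln1 (fibulin-1), by -0.70 ± 0.11 (adjusted p = 0.0278), with 3 unadjusted (21.4%).

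Collagen processing genes gave 1 lower of 10, with a median of -0.19 and 2 unadjusted (20%). It was Serpinh1, the chaperone HSP47 that folds collagen in the endoplasmic reticulum, at 818, 304.6 and 1982 units in wild-type, Srf-null and rescue cells. Serpinh1 differed by -2.06 ± 0.22 between Srf-null and both other lines (limma's adjusted p = 0.00561) and by 2.70 from Srf-null to rescue (adjusted p = 0.00321). In the latter comparison Pcolce, an enhancer of procollagen trimming, went the other way (-1.36, adjusted p = 0.0118). Matrix proteases and their inhibitors gave 1 higher of 10, Plaur (the urokinase receptor), by 1.63 ± 0.26 (adjusted p = 0.027), which was also the 1 unadjusted (10%). From Srf-null to rescue the 5 lists, with 19, 12, 14, 10 and 10 tested genes, held 2 higher genes, Serpinh1 and Fbln1. Lower were 4 genes, Pcolce, Plaur, Fermt2 and the tetraspanin Cd9. Of all probe sets 1.17% were called higher and 1.08% lower in that comparison.

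Markers of other cell types moved with the lines in part, and in bulk RNA fewer cells of a type and less RNA per cell cannot be told apart. The summed intensity of 9 trophoblast markers on the 10 to 180 min arrays was 5152 to 6727 units in wild-type, 756.2 to 2442 in Srf-null and 9184 to 16898 in rescue cells. Of the 7 that were tested, the keratins Krt8 and Krt18 and the regulator Tfap2c were lower in Srf-null cells and higher in rescue. Their geometric means were 2652, 1873 and 659 units in wild-type, 585, 249 and 151.2 in Srf-null and 3657, 3978 and 3311 in rescue cells. Tfap2c was above the floor on 10 of 15 arrays, so its means include floored values. The sum therefore follows Krt8, Krt18 and Tfap2c. The other tested markers were not called and went both ways, from -0.27 (Eomes) to 0.39 (Gata3) from Srf-null to rescue. The trophoblast regulators Hand1 and Cdx2 were above the floor on 0 and 4 of 15 arrays. Endoderm markers, a type known for secreting Col4a1, Col4a2, Lama1 and Lamb1, summed to 5556 to 7189, 5225 to 6657 and 5569 to 7684 units, with 0 of 10 called in either comparison. Foxa2 and Hnf4a of that list were above the floor on 0 arrays. Fibroblast markers without collagens summed to 2942 to 4225, 1261 to 2828 and 1663 to 3010 units. Without Tagln, an actin-binding protein gene and known SRF target that itself read 2130 to 2865, 61.7 to 1024 and 641.5 to 1642 units, the other 13 summed to 811.6 to 1810, 1111 to 1803 and 1021 to 2015 units. In Srf-null cells against both other lines 0 of 11 tested were called and 4 (36.4%) had an unadjusted p under 0.05. These went both ways, with Prrx1 (0.90) and S100a4 (1.58) higher and Vim (-1.33) and Tagln (-2.44) lower. Pdgfra and Fap were above the floor on 0 arrays. Markers of mesoderm and of mesenchyme transition, taken as 1 list, summed to 1050 to 1869.6, 1814 to 2196 and 1132 to 1513 units. The 5 tested were Snai1, Snai2, Zeb1, Eomes and Tbx6. In Srf-null cells against both other lines they gave 0 calls of 5, a median of 0.51 and 5 of 5 above 0. Snai1 was above the floor on 2 of 15 arrays and Mesp1 of that list on 0. Neural markers summed to 1912 to 3097, 2367 to 3032 and 3479.9 to 5867 units, with 1 call of 6, Sox3. It averaged 732.9 units in wild-type, 649.8 in Srf-null and 2666 in rescue cells, so the call came from the high rescue values. Against wild-type alone 0 of 6 neural markers were called in Srf-null cells. The 10 pluripotency markers summed to 78331 to 107740, 84994 to 111630 and 75177 to 94283 units, with Fgf4 and Klf4 lower in rescue than in Srf-null cells. The part of these cell types in the collagen differences was not tested.

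Across the 3 lines, serum gave 0 calls among the 58 genes. Between 10 and 180 min 18 of 9558 probe sets (0.188%) passed limma's test. At an unadjusted p under 0.05 there were 4 genes (6.9%) against 7.11% of all probe sets. They were Itgal, the alpha L chain of leukocytes (1.06 ± 0.38), Cdh11 (1.70 ± 0.73), Col13a1, a membrane collagen (0.73 ± 0.30), and Cdh3 (-1.67 ± 0.70), with adjusted p of 0.689 to 0.701. Itgal read 308.6 and 1141 units at 10 and 180 min in wild-type, 477.9 and 959 in Srf-null and 856 and 1035 in rescue cells. Its step was upward in each line and differed in size. From 10 to 30 and 60 min 0 of 58 genes and 0% of probe sets passed. An unadjusted p under 0.05 was reached there by 1 gene (1.72%) against 2.3% of all probe sets. This was Itgax, the alpha X chain of myeloid cells (1.33 ± 0.32, adjusted p = 1), which read from below the floor to 408 units.

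The change by 180 min, set against the mean of 10, 30 and 60 min, was compared between Srf-null cells and the mean of the other lines. By limma's adjusted p 6 of 58 genes were past the threshold, beside 134 probe sets (1.4%). Itga5 and Itgb3 were on the higher side, with 0.492% of all probe sets, and Col11a2, Col13a1, Col4a5 and Col6a3 on the lower side, with 0.91%. At an unadjusted p under 0.05 there were 7 genes (12.1%) against 10.2% of all probe sets. These counts give no support to a difference. At 180 min there is 1 array per line, and for Itga5, Itgb3, Col4a5 and Col6a3 all 9 arrays of 10 to 60 min lay at the floor, so the spread was 0 by construction and a single value above the floor set the p. Of all tested probe sets 165 were of that kind, and 73 of the 134 calls came from them. The genes are therefore described by their values.

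For Itga5 the value was 149.9 units on Srf-null 180 min and at or below 22.7 on the other 11 arrays of 10 to 180 min. For Itgb3 it was 129.2 units there and at or below 78.1 on the other 11. Neither gene had another array of these 12 above the floor. Col6a3, a chain of the microfibril collagen VI, and Col4a5, a collagen IV chain of kidney, were above the floor on 1 of the 12 arrays, wild-type 180 min, at 228.2 and 160.4 units. Col13a1 read 90.9, 95.7 and 272.2 units on wild-type 10, 30 and 180 min and 129.7 on rescue 180 min. Col11a2 was the one gene of the 6 with several Srf-null values above the floor, 336.4, 316.4 and 366.7 units before 169.4 at 180 min. On the 0 min arrays the same genes were also read in other lines, with Itga5 at 285.7 units in rescue and Itgb3 at 149.3 in wild-type and 149.6 in Srf-null cells.

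Taken by line on the log2 scale, the late change was 0.82 for Itga5 and 0.60 for Itgb3 in Srf-null cells and 0 in both other lines. Col4a5 and Col6a3 gave 0.92 and 1.43 in wild-type and 0 in Srf-null and rescue alike. Both of these lines lay at the floor throughout, so whether they differed from each other could not be read. Each late change of 0 given here comes from arrays at the floor and is not a measured lack of change. Col13a1 gave 1.59 in wild-type, 0 in Srf-null and 0.61 in rescue cells. For Col11a2 it was 1.40 in wild-type and 1.14 in rescue cells and below 0 in Srf-null cells, the one gene of the 6 with opposite signs. With the 0 min arrays added 0 of 58 genes and 6 probe sets (0.0628%) passed, with 4 genes (6.9%) and 4.49% of probe sets at an unadjusted p under 0.05. A filter that asks for 6 arrays above the floor also left 0 genes past the threshold. Without rescue 10 min 7 genes were past it, the other being Itgb5, a partner of alpha V (2.47, adjusted p = 0.0384).

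**Figure D4:**
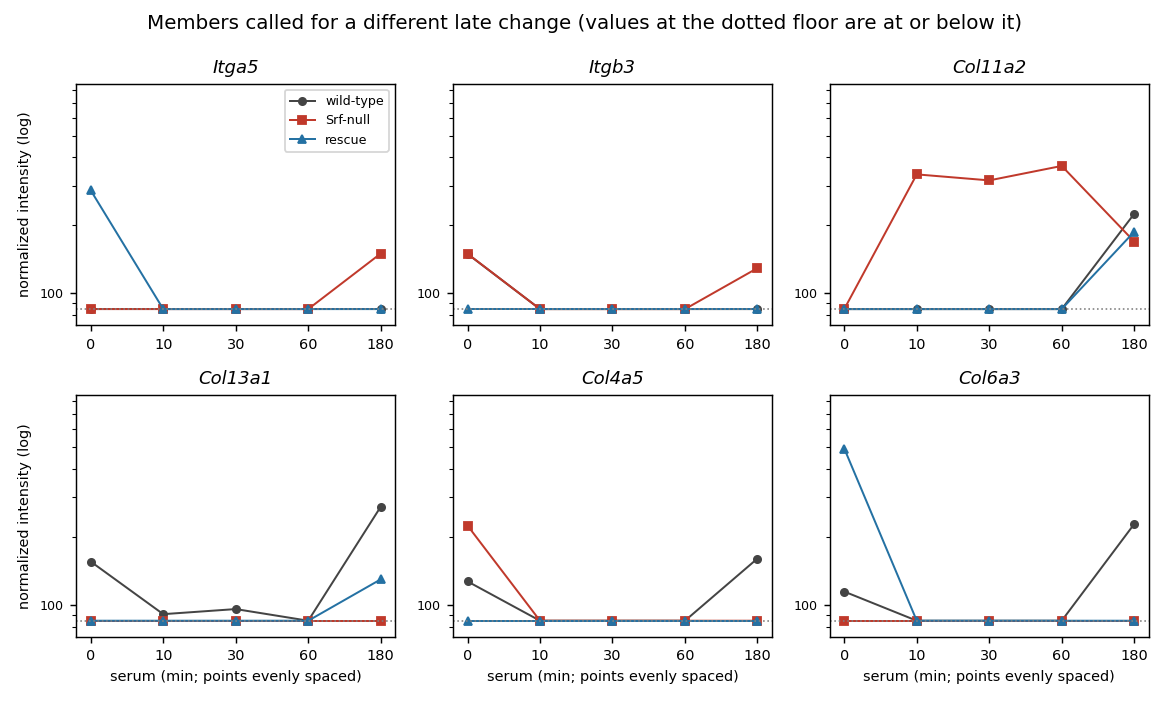
Normalized intensity (log axis) of Itga5, Itgb3, Col11a2, Col13a1, Col4a5 and Col6a3 against serum time for the 3 lines, 1 array per point; values under the floor of 84.98 are drawn on the dotted line. From 10 to 180 min most points lie on the floor, and for Itga5, Itgb3, Col4a5 and Col6a3 a single point, at 180 min, stands above it.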

How the data were processed

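The authors deposited intensity values for 12654 probe sets, of which 66 are controls. Which software, background method or scaling made them is not given in the sources used. Values below 0 occur, so some signal had been subtracted, and which signal is not stated. Samples were grouped by title, and each column matched a sample, with 0 left over. Intensities were quantile-normalized over 15 arrays, floored at their 40th percentile (84.98, log2 6.41) and put on a log2 scale. Testing took the 9558 probe sets that exceeded this floor on 2 arrays or more. Genes were named from the platform annotation, which gave 1 symbol for 10298 probe sets, several for 363 and none for 1993.

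limma 3.58.1 was run in R 4.3.3, with lmFit, eBayes and an intensity trend, and with Benjamini-Hochberg adjustment over all tested probe sets. Lines and times were compared on 12 arrays in an additive model with 6 residual degrees of freedom, and the late change in a model of line, 180 min and their interaction. For Srf-null against both other lines, a call also required the same direction against each. Precision is limited by how few arrays there are.

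The genes named were those called in any comparison, up to 4 per family by p in Srf-null cells against both other lines, the 3 with the highest mean per family, and a listed set (Cdh1, Cdh2, Cdh3, Itgb1, Itga5, Itga6, Itgav, Itga3, Itgb3, Lama1, Lama5, Lamb1, Lamc1, Col4a1, Col4a2, Col1a1, Col1a2, Col3a1 and Col18a1). Itgal, Itgax, Col12a1, Itgb5 and the genes under other observations were named after their values were seen. The genes and lists were chosen with earlier results of these data known. The fit was tested on simulated data. Alternatives were the arrays used, normalization, floor, filter, probe set, trend, further terms and leaving out each array.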

Additional observations from a re-analysis of the deposited data

Results flagged for a closer look

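For named genes, the 5 arrays of each line were examined for 1 array apart from the rest, and 7 of 67 such sets held one. Floored log2 values were used, so the share that chance would give is not known. At 0 min, Itgb1 read 4405 units in Srf-null cells against 8384 to 9209.9 at later times, and Col4a2 read 542.8 units in rescue cells against 1361 to 1799.8. At 10 min, Col3a1 read 297.7 units in rescue cells (122.4 to 157.5 at other times) and Lama5 687.5 units in Srf-null cells (1026 to 1198). At 30 min, wild-type cells gave 303.5 units of Itga3 (866.5 to 1267 at other times) and 279.5 units of Lamb2 (-77.7 to 111.3). Lamb2 values under the floor were set to it before this check, which narrows the spread of the other times. At 60 min, Srf-null cells gave 696.6 units of Col1a1 (427.5 to 473.1).

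For 6 genes the late change with serum in Srf-null cells, minus the mean of the other lines, was past the threshold of limma's test of that difference, by -2.27 for Col11a2, -1.10 for Col13a1, -0.71 for Col6a3, -0.46 for Col4a5, 0.82 for Itga5 and 0.60 for Itgb3 on the log2 scale. Each rests on 1 array per line at 180 min. For Itga5, Itgb3, Col4a5 and Col6a3 the other 9 arrays in the comparison lay at the floor, so the test had no spread to measure and cannot show a difference. For Col4a5 and Col6a3 the change was 0 in Srf-null and rescue cells alike because both lay at the floor, and the value comes from wild-type 180 min.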

How the results depend on the processing

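For 40 differences of single genes, 929 values were computed under 13 alternatives and without each of 12 arrays. Of these, 841 kept their direction and side of the threshold, 72 lost a call, 12 gained a call and 4 turned. The 841 do not measure how stable the calls are. Most of the 40 differences were not called in the main fit, so keeping their side mostly meant staying uncalled. Genes without a further probe set repeat their main value under both alternatives of probe set. Those values had to stay the same and are counted among the 841. For the genes called from Srf-null to rescue, the counts are given separately below. With the second-brightest probe set of a gene, Itgb7 turned to -0.14 in Srf-null cells against both other lines, Col18a1 to 0.00421 from Srf-null to rescue and to 0.0627 from wild-type to rescue, and Col13a1 to -0.0659 from 10 to 180 min.

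From Srf-null to rescue, the 3 called genes became 0 over all 15 arrays, with arrays scaled to a common median, with no normalization, with no filter, and with the share of values at or below 0 as a term. They became 1 with the 18S signal as a term and 1 without an intensity trend, Col4a1 both times, and 0 to 2 without single arrays, where the 1 call without rescue 10 min was Itgav. Over these 25 alternatives Col4a1 kept its call in 13 (0.98 to 1.44, adjusted p 0.00785 to 0.537), Col4a2 in 7 (0.68 to 1.51, 0.0262 to 0.891) and Col18a1 in 5 (-0.59 to 0.00, 0.0193 to 1). Col4a1 and Col4a2 have 1 probe set each, so both alternatives of probe set repeat their main value. Those alternatives had to keep the call and are counted among the 13 and the 7.

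Srf-null against both other lines gained 1 call, Col4a2, with a filter of 6 arrays above the floor, and 0 to 2 without single arrays. Against wild-type it had 0 to 1 without single arrays. Rescue against wild-type gained 1, Col4a1, with no time term. Both serum comparisons stayed at 0 under each alternative run. The 6 late calls became 0 over all 15 arrays, 0 with the filter of 6 arrays, 0 with no normalization, 2 with a common median, 3 with a floor at the 35th percentile, 1 at the 50th and 3 without a trend. They were 6 or 7 without single arrays of 10 to 60 min; leaving out a 180 min array could not be fitted. The cause of these changes was not tested. The planned floor at the 30th percentile was below 0 and has no log2, so the 35th was added after seeing the data. Serum time, shared by the 3 lines, was a term in the comparisons of lines; without it 0 genes were called in Srf-null cells against both other lines, 0 against wild-type, 2 from Srf-null to rescue and 1 from wild-type to rescue. Signal over background limits the 35 tested genes that were not above the floor on all arrays.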

Other observations

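The collagens known from cartilage were read in these ES cells as well. Col9a2, a chain of the collagen that decorates cartilage fibrils, read 759.9 to 2079 units over the 15 arrays. Its partner chains Col9a1 and Col9a3 spanned 105.4 to 1288 and -3.9 to 1276. The main fibril collagen Col2a1 spanned 111.7 to 615.1 units and its minor partner Col11a1 54.6 to 373.8. In Srf-null cells against both other lines these 5 genes gave log2 differences of -1.04 ± 0.51 (Col9a3) to 0.47 ± 0.49 (Col9a1), with 0 calls by limma's test and adjusted p from 0.397 to 0.857.

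Integrin chains known from leukocytes gave signal in ES cells. Itgb2l, a relative of the leukocyte beta 2 chain, was above the floor on all arrays at 108.9 to 932.1 units, with its highest value on Srf-null 0 min. Itgb2 itself was above the floor on 14 arrays and also highest on Srf-null 0 min, at 738 units against 106.2 to 308.8 on the other 13. Whether these probe sets read their own transcripts was not tested.

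Genes of the set that lie next to each other differed in how they varied together over the 12 arrays of 10 to 180 min, given as a description. Col6a2 and Col6a1, 2 chains of collagen VI, had a Pearson correlation of log2 values of -0.41, and Col9a1 and Col19a1 one of -0.03. The values were 0.71 for Col4a1 and Col4a2 and 0.47 for Cdh3 and Cdh1. The other pairs with a value each held a gene at the floor on most of the 12 arrays, where a correlation says little. They were Itgam and Itgax (0.44), Cdh6 and Cdh9 (-0.47), Cdh9 and Cdh10 (-0.19) and Col3a1 and Col5a2 (-0.03). Itgam was above the floor on 1 of the 12 arrays, at 85.3 units against a floor of 84.98.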
